A study of Mus musculus with 31 samples.

Results

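The maternal imprint control regions of mouse chromosome 7 were followed at Peg3, Snrpn, Inpp5f and Kcnq1ot1 through oocyte growth. Their members were the CpG sites inside 4 fixed windows (build mm9, 1-based coordinates): Peg3 at chr7:6679500-6684500, Snrpn at chr7:67146500-67150500, Inpp5f at chr7:135831000-135833000 and Kcnq1ot1 at chr7:150480000-150483000. The rule uses positions only and no methylation level. The windows held 63 of the 1419929 CpG sites listed in the series, and 61 of the 1229947 with at least 5 reads in any library: 9 at Peg3, 27 at Snrpn, 14 at Inpp5f and 11 at Kcnq1ot1. No annotation of build mm9 was used here, so exons and introns at these sites were not assigned.

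The series holds 31 reduced representation bisulfite sequencing libraries of oocytes from B6D2F1 (C57BL/6 x DBA/2) mice, with no treatment or mutant group. This assay cuts DNA with MspI at CCGG and reads methylated cytosine as cytosine. Oocytes came from primordial follicles (Type1 and Type2, 3 libraries each), primary follicles (Type3a and Type3b, 3 each), secondary follicles (Type4 and Type5a, 5 each, and Type5b, 3) and antral follicles (Type6 and Type7, 3 each). The labels give no animal age, oocyte number per library or statement of separate animals, and p-values therefore cover a spread that may be partly or wholly technical.

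An imprint control region carries methylation on the copy from one parent and thereby sets which copy of nearby genes is transcribed. Maternal imprints are erased in germ cells before birth and written again after birth while the oocyte grows, by DNMT3A with its cofactor DNMT3L, often where a transcript of the oocyte crosses the region. After fertilisation ZFP57, a zinc-finger protein that binds the methylated motif TGCCGC, protects them. Peg3 encodes a zinc-finger protein made from the paternal copy, Snrpn a splicing protein of the Prader-Willi region, Inpp5f an inositol phosphatase with an imprinted shorter transcript, and Kcnq1ot1 a long non-coding RNA that silences neighbouring genes on the paternal chromosome.

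A start of Snrpn is shown because 5 sites of its window could be matched to that RefSeq promoter by their surrounding bases. Other RefSeq starts of Snrpn were not matched, and the same interval is also listed as the promoter of Snurf. The stretch lies at chr7:60005170-60005349 of GRCm38.p6, minus strand, from 150 bases before to 30 bases after the annotated start. Capitals mark the 3 CpG sites in it that have methylation values.

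Snrpn promoter: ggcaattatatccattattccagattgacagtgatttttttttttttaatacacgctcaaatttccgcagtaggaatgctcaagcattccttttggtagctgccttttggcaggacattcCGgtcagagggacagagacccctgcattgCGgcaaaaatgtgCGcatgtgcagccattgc

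The measured site at mm9 position 67150085 lies in the motif TGCCGC, read as GCGGCA on the printed strand. The motif occurs once in this promoter, and 11.6% of 32851 RefSeq promoters of 300 bases hold it on either strand. The sites of the other loci are shown as the short runs that the deposited base contexts give (mm9, plus strand), with each measured CpG in capitals, because neighbouring CpGs in them differed within a library.

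Kcnq1ot1 chr7:150481401-150481416: ctCGacCGacctCGgg

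Kcnq1ot1 chr7:150481473-150481484: gaCGtggaCGca

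Kcnq1ot1 chr7:150481502-150481511: caCGgcCGtg

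Inpp5f chr7:135831716-135831724: aaCGcCGac

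Snrpn chr7:67150026-67150035: gtCGCGCGgc

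Libraries held 7949652 to 60361665 reads over sites, with a median of 9 to 28 reads per site. In 9 libraries CpG-dense tiles of the X chromosome were more methylated than CpG-dense autosomal tiles, by 0.978 to 10.6 points. Of secondary libraries these were replicates 1, 2 and 5 of Type4 and replicates 5 and 7 of Type5a, of antral ones replicates 1 and 2 of Type6, of primary ones replicate 1 of Type3a and of primordial ones replicate 3 of Type1. As background, CpG islands of the inactive X are methylated in female somatic cells, where a maternal imprint is methylated on 1 parental copy only. The part of other cells in these libraries was not tested, and results that rest on the 9 libraries are given with and without them.

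The level of a locus in a library is the percentage of methylated reads over all sites with at least 5 reads in its window. A read is counted at every site it covers, so depth is given as the reads at the deepest single site, and libraries can differ in which sites they measured. Snrpn and Inpp5f were lowly methylated in most libraries up to Type5a. Kcnq1ot1 was low in most libraries up to Type3a, and its stage means were 27, 33 and 24.6% in Type3b, Type4 and Type5a. From Type5b on, libraries at these loci were at 56.2 to 100%. Stage means went from 0% to 94% ± 5.51 (SD, n = 3) at Snrpn between Type1 and Type7, from 0.195% ± 0.338 (n = 3) to 90.1% ± 6.21 (n = 2) at Inpp5f, and from 7.56% ± 12.4 to 100% ± 0 (n = 3 each) at Kcnq1ot1. Peg3 could not be followed.

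**Figure D1:**
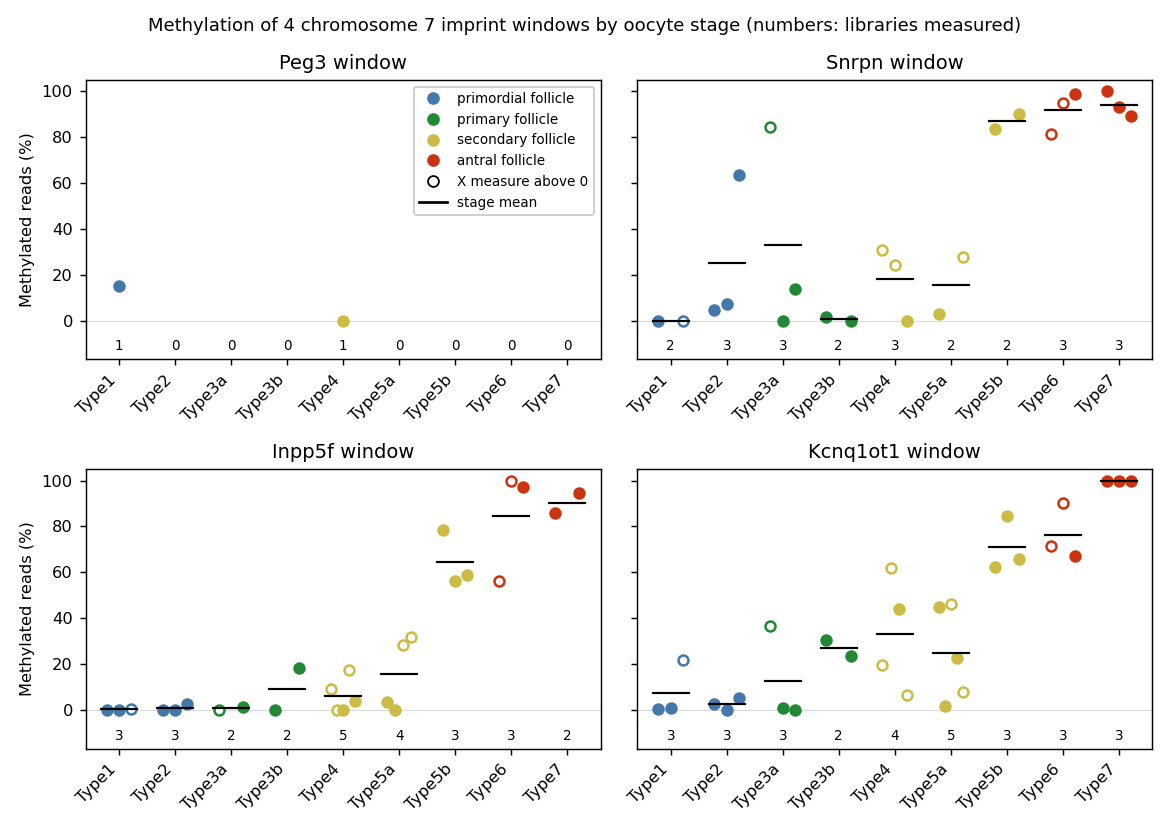
Percentage of methylated reads (y axis) in each window, by stage (x axis). Each point is a library, coloured by follicle class and open where CpG-dense X tiles lay above autosomal ones, lines are stage means, and numbers below count the libraries measured; Type5b libraries lie above all Type5a libraries at Snrpn, Inpp5f and Kcnq1ot1.

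Snrpn was measured in 23 libraries, with 6 to 109 reads at the deepest site. In Type1 both measured libraries were at 0%, with 48 and 13 reads at the deepest site, which allows levels of up to 6.25% and 23.1% there. Type2 libraries were at 4.44, 7.13 and 63.5%. All methylated reads of the first lay at site 67150042 (6 of 11), and all those of the second at 67150114 (31 of 34). Type3a libraries were at 84.5, 0 and 13.9%, but the library at 0% measured none of the sites of the others. The others measured only the 10 sites at 67149997 to 67150114, and it measured only the 13 sites at 67149597 to 67149786.

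Type3b libraries were at 1.45 and 0%, Type4 libraries at 30.6, 24.1 and 0%, and Type5a libraries at 3.03 and 27.6%. The Type4 and Type5a libraries above 20% were all among the 9 with high X tiles, while the others were at 0 and 3.03%. Type5b libraries were at 83.6 and 90%, Type6 libraries at 81.4, 95 and 98.6%, and Type7 libraries at 100, 93 and 89.1%. From Type5b on, every measured library was above 80%, and the only earlier library in that range was Type3a replicate 1.

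Inpp5f was measured in 27 libraries, with 5 to 90 reads at the deepest site. Type1 libraries were at 0, 0 and 0.586%, and Type2 libraries at 0, 0 and 2.65%. In that Type2 library all methylated reads lay at site 135831732 (7 of 15). Type3a libraries were at 0 and 1.41%, and Type3b libraries at 0 and 18.2%, the last from 4 sites with a median of 5.5 reads. All methylated reads of that Type3b library lay at site 135831774 (4 of 5). The window was thus nearly free of methylation in primordial and most primary libraries.

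Type4 libraries were at 9.18, 0, 0, 17.3 and 3.91%. Type5a libraries were at 3.33, 0, 28.1 and 31.6%, where the 0 came from 1 site with 5 reads. The 4 values above 3.91% came from libraries with high X tiles, but Type4 replicate 2, with the highest X measure (10.6 points), was at 0%. Type5b libraries were at 78.3, 56.2 and 58.8%, above all earlier ones. Type6 libraries were at 56.2, 100 and 97.3%, and Type7 libraries at 85.7 and 94.5%.

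Kcnq1ot1 was measured in 29 libraries, with 7 to 139 reads at the deepest site. Type1 libraries were at 0.211, 0.606 and 21.9%, and Type2 libraries at 2.7, 0 and 4.97%, the last wholly from site 150481522 (24 of 38 reads). Type3a libraries were at 36.8, 0.629 and 0%, and Type3b libraries at 30.4 and 23.6%. The Type1 and Type3a libraries that stood highest had high X tiles, and both Type3b libraries did not.

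Type4 libraries were at 19.7, 61.7, 44.1 and 6.27%, and Type5a libraries at 44.8, 1.53, 46.4, 22.6 and 7.76%. At this locus libraries without high X tiles also reached 44.1% (Type4 replicate 4) and 44.8% (Type5a replicate 1). Type5b libraries were at 62.3, 84.5 and 66%, and Type6 libraries at 71.4, 90.3 and 67%. All 3 Type7 libraries were at 100%, with medians of 63, 32.5 and 12 reads per site, and Type6 and Type7 did not overlap.

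Stage accounted for 80.6% of the variance between libraries at Snrpn (permutation p = 0.00186, n = 23), 91.9% at Inpp5f (permutation p = 1e-05, n = 27) and 84.4% at Kcnq1ot1 (permutation p = 1e-05, n = 29). Here 1e-05 is the smallest value that 100000 resamples can give. With 9 stages over so few libraries, part of each share arises without any stage effect. The permutation test allows for that part, and the share itself does not. Antral libraries lay above secondary ones by 55.8 points at Snrpn (two-sided exact permutation test, adjusted p = 0.0303, n = 7 and 6). The difference was 62.8 points at Inpp5f (exact permutation, adjusted p = 0.00259, n = 12 and 5) and 49.2 points at Kcnq1ot1 (exact permutation, adjusted p = 0.00431, n = 12 and 6). P-values were adjusted over 4 comparisons per locus. The secondary libraries pool Type4 and Type5a with Type5b, whose means were already 86.8, 64.5 and 70.9% at Snrpn, Inpp5f and Kcnq1ot1. From Type5b to Type6 the means rose by only 4.8, 20 and 5.33 points, with overlapping libraries, and this step was not tested on library levels. Without the 9 libraries the antral minus secondary differences were 51, 63.8 and 45.2 points. None passed the threshold (exact permutation, adjusted p = 0.171, 0.167 and 0.109, over the comparisons that still had a value). Fewer libraries raise the smallest p-value that the exact test can give, so this outcome cannot be told apart from the loss of libraries.

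Earlier steps between follicle classes did not pass the test. Primary libraries differed from primordial ones by 4.96 points at Snrpn, 4.36 at Inpp5f and 13.2 at Kcnq1ot1 (exact permutation, adjusted p = 0.69, 0.233 and 0.137). The first of these values turned to -11.2 without Type3a replicate 1, and the second to -0.0701 without Type3b replicate 3. Secondary libraries lay 17, 19 and 20.7 points above primary ones (exact permutation, adjusted p = 0.588, 0.233 and 0.137). The Snrpn value was 8.19 without Type5b replicate 3 and 33.1 without Type3a replicate 1.

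Within secondary follicles, Type5b lay above Type5a with no overlap at each of the 3 loci. The difference was 48.7 points at Inpp5f (exact permutation p = 0.0286, adjusted 0.0571, n = 4 and 3) and 46.3 points at Kcnq1ot1 (exact permutation p = 0.0357, adjusted 0.0714, n = 5 and 3), and neither passed after adjustment. At Snrpn it was 71.5 points with 2 libraries a stage, where the exact permutation test cannot go below 0.333. Both Type5b libraries measured only the 10 sites nearest the Snrpn start shown above. Over those sites alone Type5a libraries were at 3.03 and 72.6%, against 83.6 and 90%.

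Between loci of the same secondary library, the Inpp5f level minus the Kcnq1ot1 level was -14.7 points (exact sign-flip permutation p = 0.101, adjusted 0.234, n = 11). Snrpn lay 11.2 points above Inpp5f (exact permutation, adjusted p = 0.234, n = 7) and 4.99 points above Kcnq1ot1 (exact permutation, adjusted p = 0.656, n = 6). The last value was 1.17 without Type5b replicate 3 and 14.4 without Type5a replicate 1. No order of the loci passed the test.

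The windows were then split into 100-bp tiles and tested in 1 model over all tiles of the genome (quasi-binomial with limma's moderated dispersion, called at an adjusted p under 0.05 and 20 points). From Type1 to Type7, 3 of 3 member tiles that could be tested were called higher, where 17.8% of 58522 tiles were called in either direction and 17.7% higher. They were Snrpn chr7:67150001-67150100 (93.08 points, adjusted p = 0.00543), Kcnq1ot1 chr7:150481401-150481500 (92.98 points, adjusted p = 0.000194) and Kcnq1ot1 chr7:150481501-150481600 (92.1 points, adjusted p = 0.000355). The Snrpn tile holds most of the promoter sites shown above.

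From Type5a to Type5b, 1 of 5 member tiles was called, Kcnq1ot1 chr7:150481401-150481500 (52.86 points, adjusted p = 0.021), where 5.07% of all tiles were called and 4.9% called higher. That call was lost without Type5a replicate 6, without Type5b replicate 1, in a fit on those stages alone and with tiles of 200 bp. From Type2 to Type5a, 1 of 5 was called, Inpp5f chr7:135831601-135831700 (36.1 points, adjusted p = 0.0468), where 1.42% of all tiles were called and 1.41% called higher. Its Type5a value came from replicates 5 and 7, both with high X tiles. No member tile was called without either of them, without any 1 of the 3 Type2 libraries, with limma, in a fit on those stages alone, with at least 10 reads per site or with at most 10. From Type5b to Type6 0 of 5 were called (2.93% of all tiles called, 2.78% higher; 1 member tile at an unadjusted p under 0.05), and from Type6 to Type7 0 of 4 (1.45% of all tiles called, 1% higher; 2 member tiles at an unadjusted p under 0.05).

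MspI sites divide the measured sites into stretches, and stretches of 1 window differed within a library. At Snrpn the 13 sites farthest downstream in the printed direction (67149597 to 67149786) were at 0% in all 10 libraries up to Type5a that measured any of them, with 5 to 13 sites each. In Type4 replicate 1, Type4 replicate 5 and Type5a replicate 7 the 10 sites at 67149997 to 67150114 were at 46.9, 25.6 and 72.6% in the same library. Type6 replicate 1 still had 7.41% in the first and 95.8% in the second, while Type6 replicate 3 had 91.7 and 99.5% and Type7 replicate 1 had 100% in both. Those 3 are the only libraries from Type5b on that measured the first stretch.

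At Inpp5f the 8 sites at 135831562 to 135831732 were at 100, 100 and 97.3% in Type6. The 6 sites at 135831747 to 135831860 were measured in 1 Type6 library, replicate 1, and were at 0% there while the first stretch was at 100%. That library's window level of 56.2% is the mixture of both. Of the other Inpp5f libraries from Type5b on, Type5b replicate 2, Type6 replicates 2 and 3 and Type7 replicate 1 measured the first stretch only, and Type5b replicate 3 the second only. In Type7 replicate 2 the stretches were at 100 and 90.3%.

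**Figure D2:**
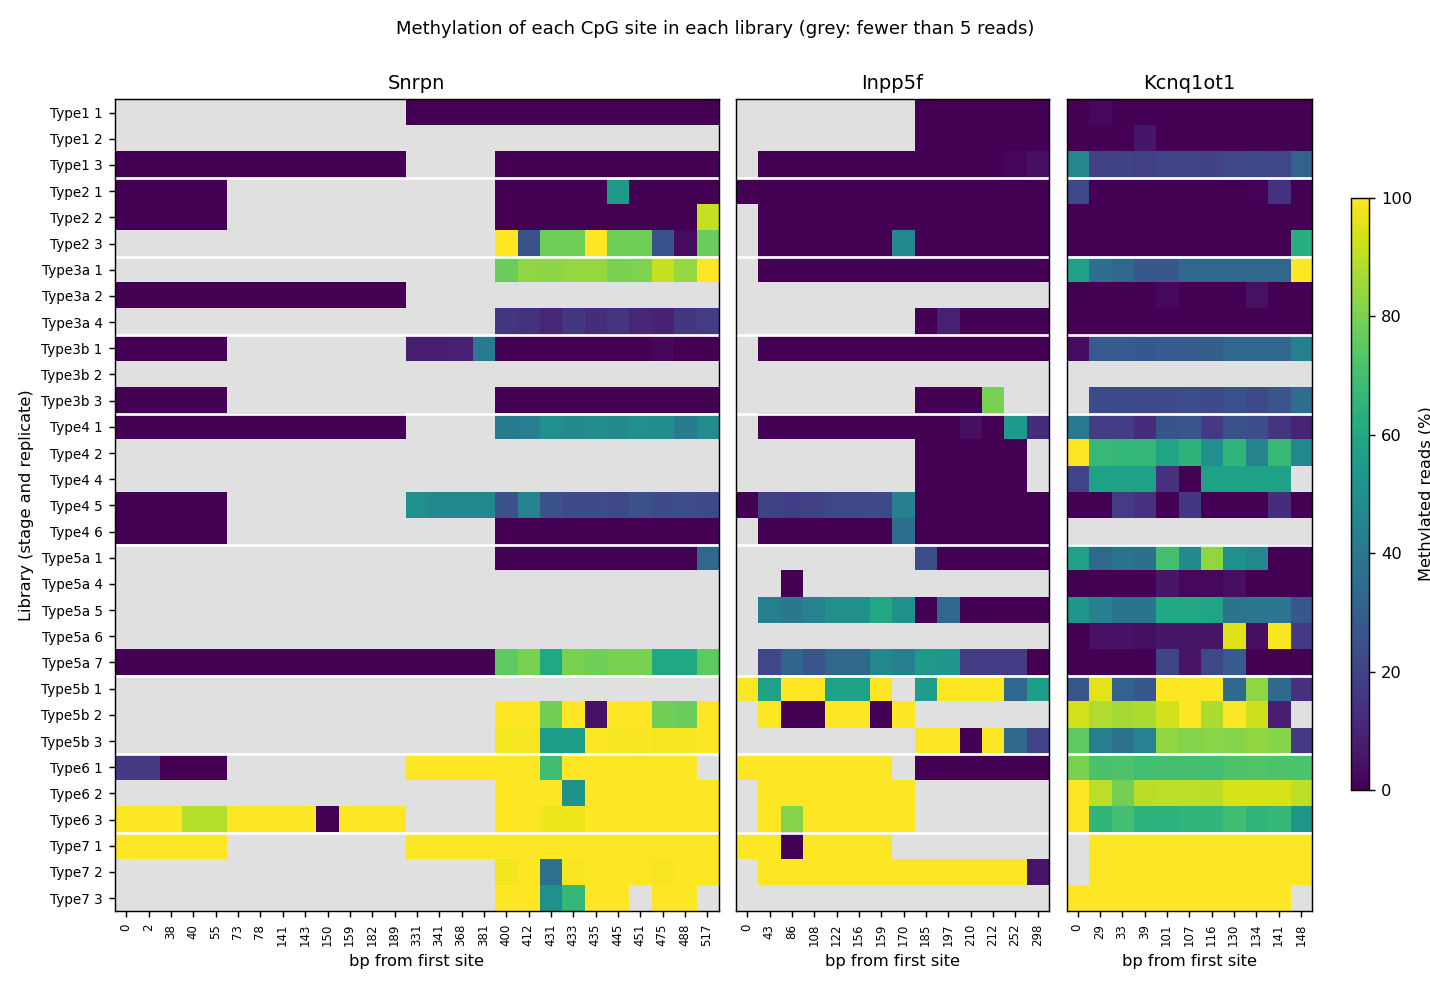
Methylation of each CpG site (columns, labelled in bp from the first measured site) in each library (rows, stage and replicate) at Snrpn, Inpp5f and Kcnq1ot1. Colour gives the percentage of methylated reads and grey marks fewer than 5 reads; white lines part the stages, and the 0% block at the left of Snrpn in Type4 replicate 1 faces methylated sites at its right.

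Neighbouring sites of a library could differ widely. At Kcnq1ot1 the Type5a replicate 6 library had 95% at site 150481504 (96 of 101 reads) and 99% at 150481515 (100 of 101), but 3.96% at 150481508 between them (4 of 101). In Type5b replicate 1 sites 150481475, 150481481 and 150481490 were at 100%, and 150481504 was at 34.7%. In the same library the 3 joined sites 150481403, 150481407 and 150481413 were at 95.8, 31.5 and 27.6%. At Inpp5f, Type5b replicate 2 had 100% at 135831718 (13 of 13 reads) and 0% at 135831721 (0 of 14), and all 5 antral libraries with reads there had 100% at both. At Kcnq1ot1 the mean SD between sites of a library was 29.2 points in Type5b and 6.45 in Type6, at similar levels, and a level of 100% leaves none in Type7. In Type6 replicate 1 all 11 sites lay between 69.7 and 80%.

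At Snrpn, Type2 replicate 3 had 100% at 67149997 (31 of 31 reads), 77.8% at 67150028, 25% at 67150072 (9 of 36) and 2.78% at the site of the ZFP57 motif, 67150085 (1 of 36). The motif site was at 77.6 and 98.8% in Type5b and at 100% in all 6 antral libraries. Site 67150028, the first of the 3 joined CpGs in the Snrpn run above, was below most of its neighbours in several late libraries: 56.2% in Type5b replicate 3, 69.2% in Type6 replicate 1, 37.5% in Type7 replicate 2 and 50% in Type7 replicate 3 (3 of 6 reads). It was at 100% in Type6 replicate 2 and Type7 replicate 1.

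At Kcnq1ot1, 26 libraries had at least 20 reads of each DNA strand, summed over 9 sites. In 11 of them the strands differed by more than 25 points. The plus strand was higher in 8 and the minus strand in 3. In 5 of those 11 libraries 1 strand was at 0%. Type1 replicate 3 had 0% on the plus strand and 28.2% on the minus strand, from 233 and 610 summed reads. Type3a replicate 1 had 55.7 and 0%, from only 61 and 44 reads summed over the 9 sites. Type3b replicate 1 had 0 and 39.6%. Antral libraries of Type6 still differed, with 86.6 and 51.6% in replicate 3. Both Type7 libraries that met the read minimum were at 100% on both strands. There the plus strand of replicate 1 had only 27 summed reads and the minus strand of replicate 3 only 26. PCR copies are not marked in these reads, and their part in these differences was not tested.

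**Figure D3:**
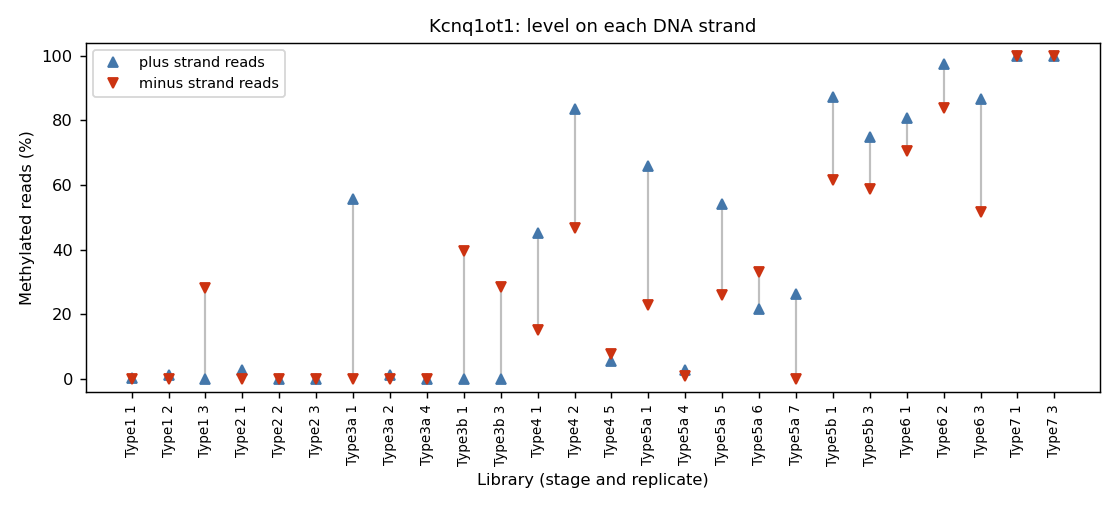
Percentage of methylated reads on the plus strand (upward triangles) and the minus strand (downward triangles) at Kcnq1ot1, for each of the 26 libraries with at least 20 summed reads of each (x axis). Grey lines join the strands of a library; they are longest in libraries of Type3a to Type5a and the strands meet at 100% in Type7.

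Antral levels were compared with CpG-dense autosomal tiles of the same library, which averaged 9.74% ± 0.286 (SD, n = 6). Those tiles have at least 60 listed sites per kb, against 27 around the Snrpn tiles, 14 at Inpp5f and 11 at Kcnq1ot1, so the densities do not match. Over all common tiles the mean level of the same libraries was higher, 33.4 to 38.6%. Snrpn lay 83.1 points above the CpG-dense tiles (exact sign-flip permutation p = 0.0312, n = 6) and Kcnq1ot1 78.4 points (exact permutation p = 0.0312, n = 6), higher in 6 of 6 libraries each. With 6 libraries the exact test cannot go below 0.0312. Inpp5f lay 77 points above the CpG-dense tiles in 5 of 5 libraries, where the exact test cannot go below 0.0625. The loci were chosen as maternal imprints, so this direction was known beforehand. Sites within 50 kb of the windows were compared as well, but these flanks were few sites and not the same ones in every library. With at least 5 reads in any library they were 9 sites at Inpp5f and 36 at Kcnq1ot1. An antral library held 3 or 4 of them at Inpp5f and 3 to 16 at Kcnq1ot1. Kcnq1ot1 differed from its flanks by -6.83 points (exact permutation p = 0.281, n = 6) and Inpp5f by 20.7 points (exact permutation p = 0.188, n = 5), and neither passed. The values were -2.45 without Type6 replicate 3 and 12.6 without Type6 replicate 2. No site was listed within 50 kb of the Snrpn window.

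**Figure D4:**
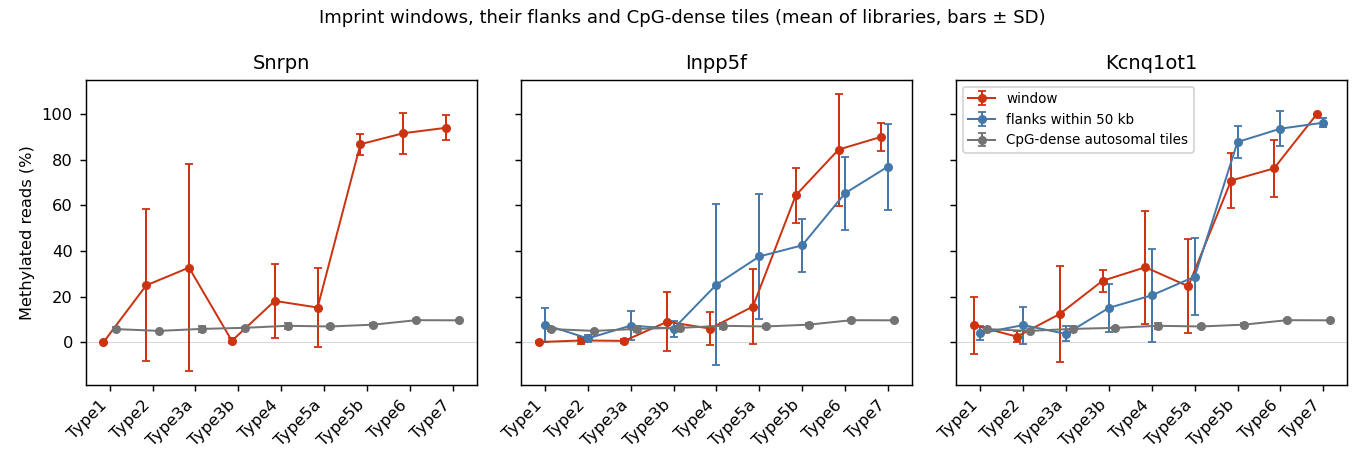
Mean level by stage (x axis) of the window, of sites within 50 kb to each side and of CpG-dense autosomal tiles (y axis, percentage of methylated reads; bars are ± SD of libraries where at least 2 were measured). Window and flanks end high in Type7, at 100 and 96.3% for Kcnq1ot1, while the CpG-dense tiles stay at 9.71%.

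The flanks of Kcnq1ot1 were at 28.8% ± 16.8 (n = 5) in Type5a and 87.8% ± 7.12 (n = 3) in Type5b, and those of Inpp5f at 37.7% ± 27.3 and 42.6% ± 11.5. The largest step of the Kcnq1ot1 flanks thus fell between the same stages as that of its window. In these stages a library held 3 to 18 flank sites at Kcnq1ot1 and 3 to 7 at Inpp5f.

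Peg3 had values in 2 of 31 libraries. In Type1 replicate 1, 7 sites with 7 or 8 reads each gave 15.1%. All 8 methylated reads lay at site 6682916 (8 of 8), and the other 6 sites were at 0%. In Type4 replicate 6, 2 sites with 14 reads each were at 0%, which allows up to 21.4%. The RefSeq promoter of Peg3 (GRCm38.p6), which was not matched to the measured sites, holds 13 CpGs and no CCGG. None is held by 47.2% of RefSeq promoters, among them that of Kcnq1ot1, whose window was measured in 29 libraries. Why Peg3 had so few values was not tested. The flanks of Peg3 were at 3.73% ± 3.44 (n = 3) in Type1, 12% ± 9.49 (n = 5) in Type5a, 49.9% ± 33.9 (n = 3) in Type5b and 65.4% ± 16.9 (n = 3) in Type7, untested. The Type5b libraries were at 80, 13.1 and 56.5%.

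Tiles elsewhere whose 9 stage means were closest to each locus, by mean absolute difference, were named by rule. Being the closest found among 39619 common tiles (at least 2 libraries of every stage), they lie below the median by selection. For Snrpn they were chr11:79463001-79463100 (4.77 points), chr10:115701801-115701900 (5.15) and chr11:115664901-115665000 (5.64), against a median of 37.9 points over common tiles. For Inpp5f they were chr9:105677001-105677100 (2.02), chr6:149165501-149165600 (2.47) and chr7:31374801-31374900 (3.32), against 29.8. For Kcnq1ot1 they were chr8:126128101-126128200 (3.29), chr12:102148501-102148600 (3.59) and chr7:134891901-134892000 (4.09), against 34.8.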

How the data were processed

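The labels' protocols describe MspI digestion of lysed oocytes, premethylated adaptors, bisulfite conversion, PCR and selection of fragments of 200 to 700 bp. BSMAP 2.89 and build mm9 are named in the submitters' processing notes. The caller is not given in the sources consulted, nor is any trimming. Each deposited file lists a total read count and a methylated read count for a CpG site, also by strand. The deposited fraction is their ratio. Sites under 3 reads are not listed. Another label names embryo stages against the titles and was not used. PCR copies were not marked, so limits cover counting error only.

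Reads of sites with at least 5 reads were summed per window and library. Library levels were compared by exact or 100000-resample permutation tests with Benjamini-Hochberg adjustment. Tiles of 100 bp with at least 3 such sites entered a quasi-binomial model with stage as factor, a limma-moderated dispersion floored at 1 and Benjamini-Hochberg adjustment across the genome. Reads of 65397 tiles were simulated for Type5b against Type5a, around 1 pooled level per tile with 1 fixed spread between libraries. Only tiles of low pooled level were changed. The model called 16, 32, 52 and 60% of tiles changed by 20, 30, 40 and 50 points, and 0.129% of unchanged ones. Of unchanged ones 10.1% had an unadjusted p under 0.05. Real tiles can spread more or less than this setting, so these rates hold for the simulated reads only. CpG-dense tiles have at least 60 listed sites per kb (2902 autosomal, 63 on X). All 4 loci were named, and like tiles were the 3 closest per locus. The loci, lists and tests were chosen with earlier results of these data known. Other read minimums, site weights, tile sizes, models, a replicate block and left-out libraries were tried. The planned tests of Peg3 and of the Snrpn flanks had too few values, and other imprint regions were not placed without an mm9 annotation. Software was limma 3.58.1 in R 4.3.3, and scipy 1.17.1, pandas 2.3.3, numpy 2.4.6 and matplotlib 3.10.9 in Python 3.11.15.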

Additional observations from a re-analysis of the deposited data

Results flagged for a closer look

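In 5 of 14 groups of 4 to 10 libraries, 1 library stood apart from the others by Dixon's test at the 95% level. The test's nominal rate of about 1 in 20 groups assumes independent, normally distributed values. Many levels here lay at the floor of the scale, and the same libraries recur across loci. The count of groups therefore cannot be set against that rate. At Snrpn, Type2 replicate 3 was at 63.5% among 5 primordial libraries, where the others did not exceed 7.13% (8.99% over the 10 sites it measured). Type3a replicate 1 was at 84.5% among 5 primary libraries, where the others did not exceed 13.9%. One of those, Type3a replicate 2, shared no site with it, which leaves 4 primary libraries on like sites. At Inpp5f, Type2 replicate 3 was at 2.65% among 6 primordial libraries (others up to 0.586%, of which Type1 replicates 1 and 2 measured 6 of its 13 sites). Type3b replicate 3 was at 18.2% there among 4 primary libraries (others up to 1.41%). In each of them all methylated reads of the window lay at 1 site, 135831732 in Type2 replicate 3 (7 of 15) and 135831774 in Type3b replicate 3 (4 of 5). At Kcnq1ot1, Type1 replicate 3 was at 21.9% among 6 primordial libraries (others up to 4.97%). CpG-dense X tiles minus autosomal tiles were at 1.86 points in Type3a replicate 1 and 1.09 in Type1 replicate 3, but at -2.35 in Type2 replicate 3 and -0.768 in Type3b replicate 3.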

How the results depend on the processing

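The mean of site fractions, sites measured in every stage (no Inpp5f value) and the central part of the window (no Snrpn value) changed no call where they gave a value. Over sites measured in every stage, Snrpn primary minus primordial was 9.025 and Snrpn minus Kcnq1ot1 15.8. Without the 9 libraries of high X tiles, antral minus secondary fell short of the threshold at Snrpn (50.99 points), Inpp5f (63.83) and Kcnq1ot1 (45.2), as did the difference from CpG-dense tiles at Snrpn (85.56) and Kcnq1ot1 (82.14), with fewer libraries. Primary minus primordial at Snrpn became -14.91, and Snrpn minus Kcnq1ot1 in secondary libraries -6.193. The replicate block gave antral minus secondary of 35.71, 50.81 and 29.95 points at Snrpn, Inpp5f and Kcnq1ot1, short of the threshold over 3 shared numbers. The correlations between same-numbered libraries do not settle whether the numbers pair the libraries. They ran from -0.108 to 0.0992, and no stage pair of 15 had every correlation over 0.1. Over the 15 stage pairs 45 comparisons were made, in which the same libraries recur, so they are not independent. In 21 of these comparisons a library correlated best with its own of 3 numbers. At least 3 reads per site brought Type5b minus Type5a at Inpp5f past the threshold (51.91). At least 10 reads gave -0.07009 for Inpp5f primary minus primordial and 86.59 for Snrpn minus CpG-dense tiles, with 5 libraries and no longer past the threshold.

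Leaving out 1 library gave -11.16 to 17.08 for Snrpn primary minus primordial, -0.07009 to 5.991 for Inpp5f, and 81.63 to 85.4 and 75.97 to 82.53 for Snrpn and Kcnq1ot1 minus CpG-dense tiles, where 5 libraries cannot go below an exact p of 0.0625. It gave 0 to 2 called member tiles for Type5a against Type2 and 0 to 1 for Type5b against Type5a. The single tile of Type5a against Type2 became 0 with limma, the replicate block, a fit on those stages, at least 10 reads, at most 10 reads per site, and without the 9 libraries. That of Type5b against Type5a became 0 with the replicate block, a fit on those stages and 200-bp tiles, and 2 with at least 1 site per tile, which gave 6 for Type7 against Type1. Over all tiles, Type5a against Type2 had 1135 calls, and 14 in the fit on those stages; the cause was not tested. At the minimum of 5 reads per site, Peg3 had no value in 29 libraries, Snrpn in 8, Inpp5f in 4 and Kcnq1ot1 in 2.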
